A study of Mus musculus with 9 samples.

Results

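Zfp genes are mouse genes named for zinc finger proteins, and the genes described here are all autosomal protein-coding genes whose symbol is Zfp followed only by digits. The RefSeq gene table of assembly GRCm38.p6 lists 360 of them among 20665 autosomal protein-coding genes. Their CpG methylation was read from whole-genome bisulfite sequencing (WGBS) of 9 samples of nucleus accumbens, the ventral striatal region that takes part in reward and motivation. In 5 samples the phenotype label is Control and in 4 it is Susceptible. All samples are labelled with the same strain, C57BL/6J, and carry 1 common treatment text: males aged 8 weeks that met an aggressive CD1 retired breeder in daily defeats over 10 days. That text is also attached to the Control samples, and how Control mice were handled, or how Susceptible mice were told from others, is not stated. DNA came from frozen punches, so that each value averages over every cell type in the punch, and a change in the mix of cells and a change within 1 cell type cannot be told apart. Nothing in the labels says that each sample came from a separate mouse, and the p-values below measure the spread between these samples.

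Many of the proteins carry tandem C2H2 zinc fingers that bind DNA, often together with a KRAB domain that recruits TRIM28 and, through it, the histone methyltransferase SETDB1. KRAB zinc finger genes stand in clusters of related copies, and many of their products bind and silence retrotransposons. In a typical member of this family the start lies in a CpG-rich promoter, while the long last exon near the 3' end encodes the row of fingers.

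For each gene and library, methylated calls and all calls were summed over 3 regions: 1 kb on each side of the listed start (the start window), the whole gene from bound to bound (the gene body), and the last 3 kb before the 3' end. A level is the percentage of calls read as methylated, and the level of a gene is the mean over the 9 libraries. The RefSeq promoter table gives a start and a strand for 301 of the 360 genes. The other 59, among them all 11 on chromosome 18, entered the gene body only. With 20 or more calls required in every library, 288 start windows, 355 gene bodies and 271 last 3 kb could be read. At that minimum, Zfp352 was just inside with 20 calls in its shallowest library (start level 94.2%), and Zfp534 was just outside with 19 (mean 84.3% over its libraries). Among the 13 genes with a listed start that could not be read, Zfp735 had 10 calls in its shallowest library and Zfp973 had 0 calls in all 9.

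The promoters of 5 genes show the range of starts in this family. Each line below gives the 250 bases before a listed start, 5' to 3' on the gene's own strand, from RefSeq promoters on GRCm38.p6, with CpGs in capitals. Zfp423, a neural and adipocyte precursor factor, has a CpG-rich promoter (chr8:87959596-87959845, minus strand, 18 CpGs) whose start window read 1.54%. Zfp931 is shown because these 250 bases hold 2 CpGs (chr2:178078426-178078675, minus strand). Its start window, which is wider and reaches 1 kb on each side, read 1.74%.

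Zfp423, outermost start: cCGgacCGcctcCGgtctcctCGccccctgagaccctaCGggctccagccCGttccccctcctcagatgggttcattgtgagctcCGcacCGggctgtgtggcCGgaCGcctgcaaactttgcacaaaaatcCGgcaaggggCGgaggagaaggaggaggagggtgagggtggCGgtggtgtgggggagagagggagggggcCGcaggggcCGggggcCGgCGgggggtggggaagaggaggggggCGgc
Zfp931, outermost start: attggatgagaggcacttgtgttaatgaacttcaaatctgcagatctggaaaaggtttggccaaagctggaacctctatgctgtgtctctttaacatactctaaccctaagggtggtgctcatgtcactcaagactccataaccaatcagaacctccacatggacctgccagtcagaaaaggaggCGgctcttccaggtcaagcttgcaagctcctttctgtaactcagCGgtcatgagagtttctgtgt

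Zfp42, a marker of pluripotent stem cells, has 9 CpGs there (chr8:43307010-43307259, minus strand), and its start window read 77.5%. Zfp57, a KRAB zinc finger protein that maintains methylation imprints, has 3 listed starts. The outermost (chr17:37000913-37001162, plus strand, 6 CpGs) read 93.4%, and the next, 1362 bp inside (chr17:37002275-37002524, plus strand, 7 CpGs), read 11.4%. Zfp217, whose product works with corepressor complexes, has an outermost listed start (chr2:170142676-170142925, minus strand, 6 CpGs) that read 93.1%. Its inner listed start, 11455 bp further into the gene (chr2:170131221-170131470, minus strand, 43 CpGs), read 1.90%. The last 2 genes are shown because their listed starts differ so much in level.

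Zfp42, outermost start: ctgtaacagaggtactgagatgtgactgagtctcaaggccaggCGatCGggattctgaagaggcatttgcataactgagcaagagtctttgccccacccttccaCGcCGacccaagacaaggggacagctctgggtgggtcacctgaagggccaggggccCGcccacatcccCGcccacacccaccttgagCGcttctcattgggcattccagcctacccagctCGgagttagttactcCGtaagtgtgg
Zfp57, outermost start: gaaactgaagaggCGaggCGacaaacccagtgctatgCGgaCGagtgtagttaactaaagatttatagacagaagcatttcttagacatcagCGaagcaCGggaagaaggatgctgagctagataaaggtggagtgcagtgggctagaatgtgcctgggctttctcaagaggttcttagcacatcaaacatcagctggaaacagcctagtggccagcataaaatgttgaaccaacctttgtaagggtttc
Zfp57, inner start: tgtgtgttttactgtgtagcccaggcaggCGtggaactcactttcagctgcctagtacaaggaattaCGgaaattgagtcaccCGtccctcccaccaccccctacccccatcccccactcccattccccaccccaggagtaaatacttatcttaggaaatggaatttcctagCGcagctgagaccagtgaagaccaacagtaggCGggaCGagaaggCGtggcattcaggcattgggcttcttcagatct
Zfp217, outermost start: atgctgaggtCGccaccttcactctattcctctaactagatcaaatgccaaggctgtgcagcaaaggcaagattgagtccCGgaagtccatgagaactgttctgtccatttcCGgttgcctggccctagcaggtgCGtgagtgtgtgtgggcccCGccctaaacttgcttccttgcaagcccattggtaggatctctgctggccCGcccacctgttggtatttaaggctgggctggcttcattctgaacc
Zfp217, inner start: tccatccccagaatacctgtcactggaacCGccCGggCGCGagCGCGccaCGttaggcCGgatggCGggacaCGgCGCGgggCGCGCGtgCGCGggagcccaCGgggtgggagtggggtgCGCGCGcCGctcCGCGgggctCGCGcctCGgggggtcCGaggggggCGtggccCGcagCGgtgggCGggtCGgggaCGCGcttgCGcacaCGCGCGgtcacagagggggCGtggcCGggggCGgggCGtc

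The libraries hold 313475624 to 430312082 listed calls in Control and 432409939 to 570984634 in Susceptible. Every listed cytosine has at least 10 calls. The median Zfp start window held 58 listed CpGs and 1444 calls per library, the median last 3 kb 28 CpGs and 520 calls. Listed cytosines numbered 13446563 to 19536874 in the Control libraries and 19705746 to 22631489 in the Susceptible libraries. The groups thus overlapped neither in listed cytosines nor in listed calls. Start windows of 6 of 10 striatal projection neuron genes could be read, and all 6 were below 20% (3.69 to 16.0%). Among them were the dopamine receptor genes Drd1 and Drd2. Of the starts of protein-coding genes other than Zfp genes, 60.6% were below 20%, so these few low starts do not identify the tissue. Both readable microglial starts were high, Cx3cr1 at 76.8% and P2ry12 at 84.0%. Of the oligodendrocyte starts, 3 of 5 read 50% or more and 2 were below 20%, and of the astrocyte starts 2 of 4 read 50% or more and 2 were below 20%.

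Zfp genes were low at the start and high at the 3' end. The median start window read 6.12%, with library medians from 5.58 to 6.41%, and the median last 3 kb read 90.6%, with library medians from 90.4 to 91.7%. The start median was 1.97% with 500 bp on each side and 3.62% with only the CpGs listed in all 9 libraries. The 15159 other protein-coding genes with a readable start had a median of 9.24%, and the 15026 with a readable last 3 kb had a median of 86.8%. Their starts were far more spread: the upper quartile was 75.3%, against 14.2% in Zfp genes. Over the whole gene body the Zfp median was 65.5% (355 genes), against 72.9% in 19385 other genes. Without the first 1 kb and the last 3 kb the body read 88.2% in 280 Zfp genes and 85.4% in 12126 others.

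The plot of mean methylation by distance covers genes of 10 kb or more, 258 Zfp genes and 10291 others. In the 500 bp after the start the mean was 10.4% in Zfp genes and 20.7% in the others, and in the 500 bp before it 13.0% and 22.3%. The levels of the Zfp genes climbed steeply on the gene side, to 64.3% at 1 to 1.5 kb and 83.1% at 2 to 2.5 kb, where other genes read 56.3% and 76.3%. Near the 3' end the Zfp mean was highest from 3 to 2.5 kb before it, at 90.2%, where other genes read 85.3%. From 2 to 2.5 kb past the end they read 78.8% and 79.3%.

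**Figure D1:**
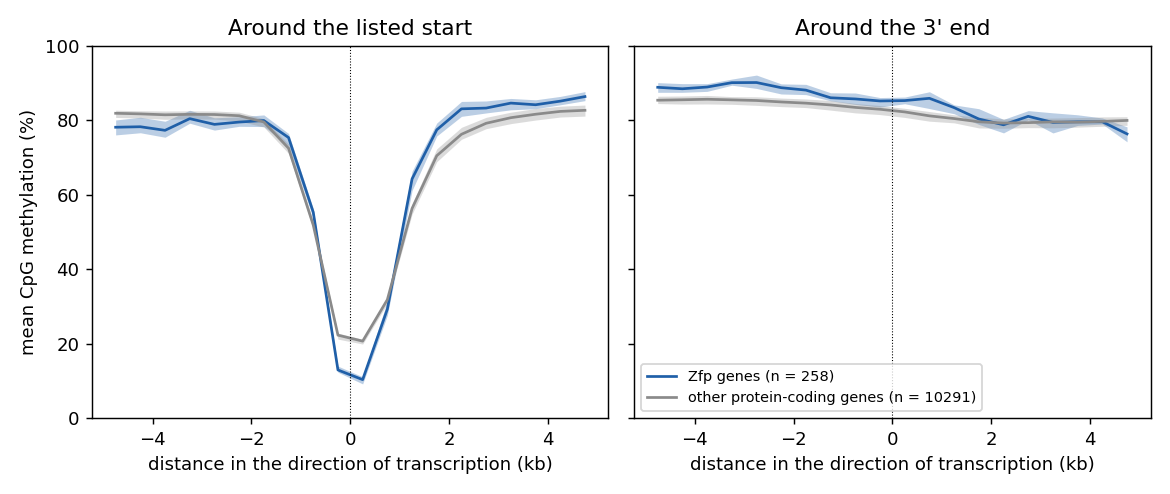
Mean CpG methylation in percent by distance in the direction of transcription from the listed start (left) and from the 3' end (right), in bins of 500 bp, for 258 Zfp genes and 10291 other protein-coding genes of 10 kb or more. A gene enters a bin in a library with 10 or more calls there; lines are means over 9 libraries and bands run from the lowest to the highest library. The Zfp curve falls to 10.4% just after the start, below the 20.7% of other genes, and stands at 90.2% from 3 to 2.5 kb before the 3' end, above their 85.3%.

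Within genes the direction was nearly uniform. Of 262 Zfp genes of at least 4000 bp with both regions, 250 had the 3' end higher than the start at an adjusted p under 0.05 (limma on the difference of log2 odds within a library, adjusted over 12478 genes). That is 95.4% of them, where 83.6% of all genes tested passed in this direction. In 246 Zfp genes (93.9%) the 3' end was higher in all 9 libraries, where this held for 80.3% of all genes tested. The median difference was 82.5 percentage points, against 74.9 in other genes. The direction with the start higher was called in 3 Zfp genes, where 6.36% of all genes tested were called. That count was 5 with a start window of 500 bp on each side, and 7 when the CpG-richer gene end stood in as the start of genes with no listed strand.

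Zfp160, in the largest cluster on chromosome 17, had the highest of the 271 readable 3' ends. Its 3' end read 100, 95.0, 100, 100 and 100% in the Control libraries (numbered 2, 3, 4, 5 and 8, the order used throughout) and 100, 100, 98.5 and 99.1% in the Susceptible libraries (2, 3, 6 and 7). The start read 3.67% ± 2.31 (SD, n = 9), a difference of 12.08 on the log2 odds scale (SE 0.44; limma, adjusted p = 1.6e-10). Every library was near the upper limit at the 3' end, and 13 CpGs with at least 73 calls stand behind these values. The other 4 highest 3' ends were those of Zfp708 (98.6%), Zfp606 (98.3%), Zfp760 (98.3%) and Zfp958 (98.2%), whose shallowest libraries held 41 to 110 calls.

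**Figure D2:**
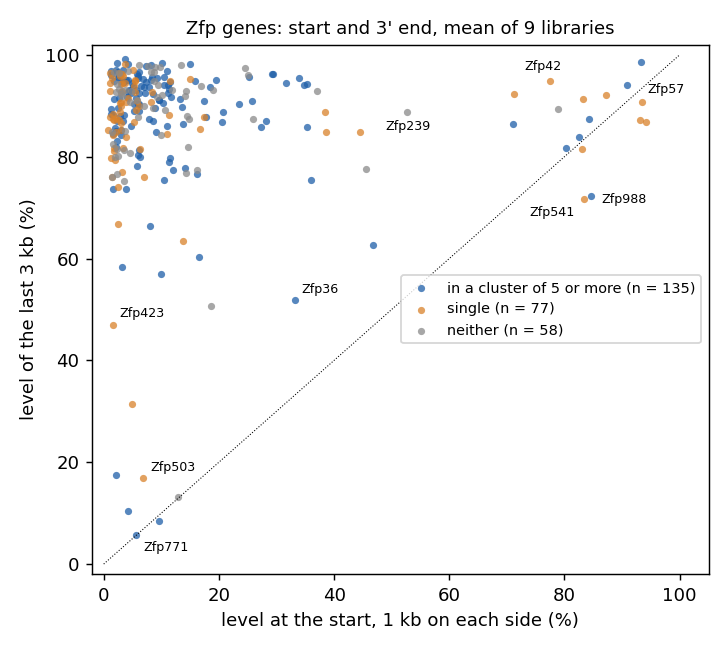
Level of the last 3 kb against level of the start window, in percent, for 270 Zfp genes with both regions, each point the mean of 9 libraries and coloured by place in a cluster; the dotted line marks equal levels. Most points lie in the upper left corner, with low starts and high 3' ends; points along the right side are genes with methylated starts, and those near the bottom are genes with low 3' ends.

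The 3 genes with the start higher were named by their count and not by a rule. Zfp541, a germ cell gene needed in meiosis, read 84.2, 84.6, 77.7, 77.2 and 96.8% at the start in Control and 84.3, 81.5, 83.8 and 80.4% in Susceptible. Its last 3 kb read 71.6% ± 2.21 (SD, n = 9), lower than the start in all 9 libraries (log2 odds difference -1.11, SE 0.31; limma, adjusted p = 0.00509). Zfp988, in the chromosome 4 cluster, read 84.6% ± 6.19 at the start and 72.2% ± 5.34 at the 3' end, with the start higher in 8 libraries and equal in Control 8 (limma, adjusted p = 0.00102). In Zfp217 the outermost start read 93.1% ± 1.77 and the last 3 kb 87.2% ± 4.19 (limma, adjusted p = 0.00368). In all 3 both regions were methylated, so these differences lie within the high range. Another 9 of the 262 Zfp genes were called in neither direction, where 1249 of all 12478 genes tested were. Of the 9 Zfp genes, 6 had methylated starts (Zfp57, Zfp352, Zfp626, Zfp648, Zfp936 and Zfp985) and 3 had low 3' ends (Zfp174, Zfp580 and Zfp771).

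Low 3' ends were rare. The last 3 kb read under 50% in 8 of 271 Zfp genes (2.95%), against 8.39% of other genes, and 90% or more in 142 (52.4%), against 31.8%. Zfp771 had the lowest, with 5.25, 8.52, 4.33, 8.53 and 3.71% in Control and 5.18, 4.02, 7.34 and 4.06% in Susceptible. Its last 3 kb holds 159 listed CpGs, and start (5.63%) and 3' end (5.66%) were both low. Next came Zfp580 (8.52%), Zfp53 (10.4%), Zfp174 (13.3%) and Zfp503 (16.8%), followed by Zfp329 (17.5%), Zfp830 (31.4%) and Zfp423 (47.0%). The last 3 kb of Zfp174, Zfp329 and Zfp830 overlaps the start window of another protein-coding gene (Zfp597, Zscan18 and Cct6b, in this order). Those of Zfp580 and Zfp53 overlap a long noncoding RNA gene (Gm15510 and 9330136K24Rik), and those of Zfp771, Zfp503 and Zfp423 overlap no other listed gene. Further protein-coding genes lie within 1 kb without overlap: Ccdc106 beside Zfp580, Zfp52 beside Zfp53 and Naa60 beside Zfp174. An overlap with another start window was also found at high 3' ends, those of Zfp628 (81.3%, with Nat14) and Zfp78 (82.0%, with Zfp28). The last 3 kb of Zfp511 (91.9%) meets the window around an end of Tubgcp2, whose strand is not listed. In the last 1 kb alone Zfp771 read 1.0%, Zfp53 0.973% and Zfp174 4.81%, while Zfp580 read 10.5% and Zfp503 39.4%, so the level changes along these 3 kb.

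Zfp503, which acts in the development of striatal neurons, was low over the gene as a whole. Its 5643 bp read 9.76%, its start 6.82% ± 2.63 and its last 3 kb 16.8% ± 5.96 (SD, n = 9). The 3' end read 12.5, 17.4, 19.6, 12.1 and 31.3% in Control and 12.8, 15.3, 14.2 and 16.3% in Susceptible. Control 8 was highest, and the groups overlapped. Zfp423 reached 80.2% over its body of 300244 bp, yet its last 3 kb read 46.0, 51.5, 48.5, 54.6 and 50.3% in Control and 43.2, 49.9, 45.2 and 34.3% in Susceptible. Zfp36 is no C2H2 gene: it encodes tristetraprolin, a CCCH protein that binds AU-rich elements and speeds mRNA decay. Its gene spans 2445 bp, so its last region is the whole gene, at 51.8%, and overlaps its start window, at 33.1%. Its last 1 kb read 83.1%, and 500 bp on each side of the start 20.2%.

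Methylated starts, defined as a level of 50% or more, were found in 24 of 288 Zfp genes (8.33%), against 4916 of 15159 other genes (32.4%). By library the Zfp number ran from 23 to 25. A further 26 Zfp starts read from 20 to 50%, 121 from 5 to 20% and 117 under 5%. The count depends on where the start is placed: with the outer gene bound as the start it was 42. The spread between libraries was widest at intermediate starts, with a median SD of 7.28 points there, 5.32 at starts of 50% or more and 1.11 at starts under 5%.

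The highest starts were those of Zfp352 (94.2%), Zfp57 (93.4%), Zfp708 (93.3%), Zfp217 (93.1%), Zfp235 (90.9%), Zfp977 (88.6%), Zfp957 (87.3%), Zfp988 (84.6%), Zfp626 (84.3%) and Zfp345 (83.7%). Zfp352, a gene active in the early embryo, read 97.1, 100, 100, 82.9 and 86.9% in Control and 92.4, 95.2, 98.7 and 94.5% in Susceptible, from 8 listed CpGs. Zfp57 read 91.7, 85.5, 93.6, 96.6 and 99.7% in Control and 96.0, 93.1, 94.6 and 89.9% in Susceptible. Zfp708, a KRAB zinc finger gene known for repressing a retrotransposon family, read 94.2, 90.5, 96.1, 97.2 and 99.1% in Control and 92.5, 91.8, 91.0 and 87.3% in Susceptible. In all 3 the groups overlapped, and no library fell below 82.9%. For Zfp626 the placing of the start decided the level, which was 20.2% at the outer gene bound.

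Among the 24, the starts nearest to 50% were those of Zfp979 (50.2%), Zfp239 (52.7%), Zfp640 (70.4%), Zfp981 (71.1%), Zfp652 (71.2%), Zfp42 (77.5%), Zfp993 (77.8%), Zfp972 (78.8%), Zfp985 (80.2%) and Zfp980 (82.4%). The start of Zfp979 read 38.5, 42.3, 38.8, 49.2 and 65.8% in Control and 49.3, 58.7, 58.3 and 51.2% in Susceptible, from 2 listed CpGs with 43 or more calls. These libraries fall on both sides of 50%, with Control 8 highest. Zfp239 read 40.0 to 76.5% over the 9 libraries. Its level was 11.7% when only CpGs listed in all 9 libraries were counted and 73.6% with 500 bp on each side. Zfp42 was steadier between libraries, at 77.8, 77.3, 78.9, 78.3 and 75.7% in Control and 81.7, 75.3, 76.3 and 76.2% in Susceptible, with 49 CpGs and at least 535 calls. Its level was 58.8% with only CpGs listed in all 9 libraries and 69.7% with 500 bp on each side. The other 4 methylated starts read from 82.6 to 83.4%.

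A single listed start was given for 19 of the 24 genes. All 5 with several listed starts had an inner one below 20%: Zfp217, Zfp57, Zfp239, Zfp791 and Zfp708. The inner start of Zfp217 ranged over the libraries from 1.48 to 2.55%, and the outermost from 89.7 to 95.1%. The inner starts of Zfp57 read 11.4% and 12.5%, and the first of these windows overlaps that of the outermost start. Zfp708 read 16.4% at a start 16431 bp inside, Zfp791 15.9% at 3404 bp and Zfp239 15.1% at 857 bp, where the windows also overlap. Of the 238 starts below 20%, 42 belong to genes with several listed starts, and in 3 an inner one read 50% or more (Zfp423, Zfp788 and Zfp982). The inner start of Zfp423, 155156 bp into the gene, read 83.7%, against 1.54% at the outermost.

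Starts were less methylated where listed CpGs were many, in Zfp genes as in others, but within bins of listed CpG number Zfp genes and others differed. A cytosine is listed only with 10 or more calls, so this number also depends on coverage and is not the CpG number of the sequence. With 30 to 49 listed CpGs in the start window, 3 of 74 Zfp starts (4.05%) read 50% or more, against 951 of 1669 other starts (57.0%). With 15 to 29 CpGs it was 11 of 31 (35.5%) against 1969 of 2171 (90.7%). Under 15 CpGs all 10 Zfp starts and 98.5% of 1844 others were methylated, and with 50 or more CpGs 0 of 173 Zfp starts and 1.89% of 9475 others. These shares are descriptions without a test. The range over single libraries was 4.05 to 6.76% for Zfp genes and 53.4 to 58.6% for others at 30 to 49 CpGs.

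**Figure D3:**
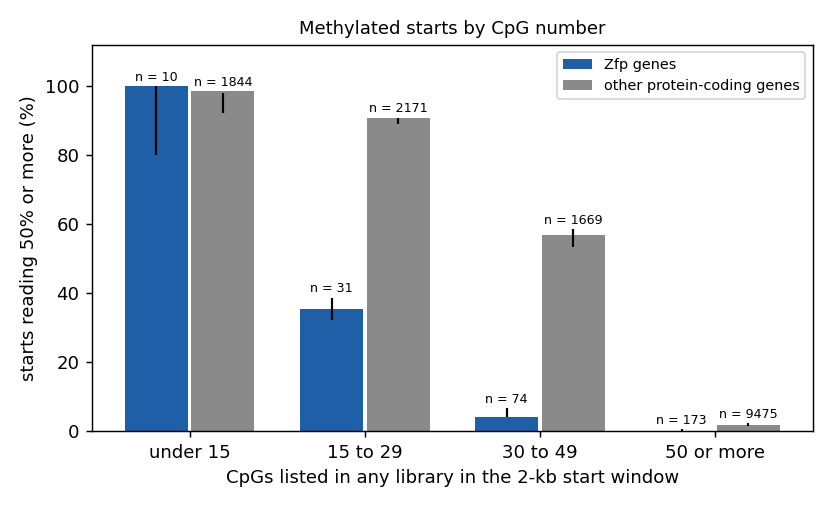
Share of start windows reading 50% or more, in percent, by the number of CpGs listed in any library in the 2-kb window, for Zfp genes and other protein-coding genes. Bars use the mean of 9 libraries and lines run from the lowest to the highest single library; n is the number of genes. At 15 to 29 and at 30 to 49 CpGs the Zfp bars (35.5% and 4.05%) stand below those of other genes (90.7% and 57.0%).

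The content of the promoter sequence was compared next. The CpG observed-to-expected ratio of the 300 bases around the start (250 before and 50 after) compares the CpGs present with the number that the content of C and G would give. Its median was 0.63 in both Zfp genes and others. Below a ratio of 0.4, 20 of 60 Zfp starts (33.3%) were methylated, against 4353 of 5219 others (83.4%). At 0.4 or more it was 4 of 228 against 563 of 9940 (5.66%). The wider start windows were not alike in CpG number within these bins. Below 0.4 they held a median of 31 listed CpGs in Zfp genes and 20 in others, and at 0.4 or more 66 and 91. The Zfp931 promoter printed above is 1 of the CpG-poor ones, and the wider start window around it was low. This window read 1.91, 6.11, 0, 0 and 3.70% in Control and 0.524, 2.74, 0 and 0.680% in Susceptible, with 125 to 441 calls. Across 288 Zfp genes the start level and the ratio had a Spearman rho of -0.47, and across 15159 others -0.77, while start and 3' end levels across 270 Zfp genes had a rho of 0.004. Genes share libraries and neighbours and are not independent replicates.

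With gaps of at most 500 kb between neighbours, 168 of the 360 genes stood in 16 clusters of 5 or more, 98 were single with no other member within 1 Mb, and 94 were neither. Clustered genes had a median start of 7.60% (146 genes), single genes 3.56% (78) and the rest 8.64% (64). Starts of 20% or more made up 20.5% of clustered genes and 15.4% of single genes, and starts of 50% or more 8.22% (12 genes) and 11.5% (9 genes). The promoters also differed, with a median CpG ratio of 0.60 in clusters and 0.74 in single genes. The last 3 kb read 91.2% in clusters and 88.7% in single genes. Its library medians overlapped, from 91.0 to 92.2% in clusters and from 89.6 to 91.0% in single genes, where the median of the gene means lay below every library median. Library medians of the start ran from 6.49 to 8.07% in clusters and from 3.15 to 4.19% in single genes, without overlap. Every library reads the same genes, so these ranges show the spread between libraries and not that between genes.

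Among the clusters, that at the far end of chromosome 4 (chr4:145510759-147849126, Zfp990 to Zfp933, 16 genes), a family studied for its control of retrotransposons, had the highest starts. Its median was 71.1% over 9 readable genes, of which 6 read 50% or more: Zfp980 (82.4%), Zfp981 (71.1%), Zfp993 (77.8%), Zfp988 (84.6%), Zfp985 (80.2%) and Zfp979 (50.2%). These 6 have 2 to 19 listed CpGs in the start window. The lowest start there, that of Zfp982 at 17.7%, holds 61. Another 3 starts of the cluster had too few calls to be read, and 4 genes have no listed strand.

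The chromosome 13 cluster (chr13:66670274-67827000, Zfp640 to Zfp273, 20 genes) had a median start of 16.8%, with 10 of 18 below 20%, 6 between 20 and 50% and 2 above (Zfp640 and Zfp708). The cluster from Zfp180 to Zfp526 on chromosome 7 (chr7:24081877-25227876, 14 genes) had a median of 19.4%, with 4 of 11 starts between 20 and 50% and 1 above, that of Zfp235 at 90.9%. The largest cluster (chr17:21008941-23599755, Zfp160 to Zfp13, 23 genes) was lower, with a median of 5.28% and 20 of 21 starts below 20%. The lowest median was 2.69%, over 9 genes from Zfp786 to Zfp775 on chromosome 6. At the 3' end these 5 clusters had medians of 86.1, 94.2, 91.8, 91.6 and 92.5%, in the order given.

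The other 11 clusters had start medians between 3.05 and 12.7%. On chromosome 7 they run from Zfp628 to Zfp580 (6 genes), Zfp787 to Zfp28 (6), Zfp551 to Zfp446 (7), Zfp60 to Zfp36 (6), Zfp84 to Zfp146 (15), Zfp141 to Zfp819 (9) and Zfp553 to Zfp646 (10). The rest are Zfp930 to Zfp866 on chromosome 8 (6), Zfp560 to Zfp846 (5) and Zfp653 to Zfp810 (5) on chromosome 9, and Zfp871 to Zfp414 on chromosome 17 (11). Methylated starts in them were those of Zfp626, Zfp936 and Zfp977.

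**Figure D4:**
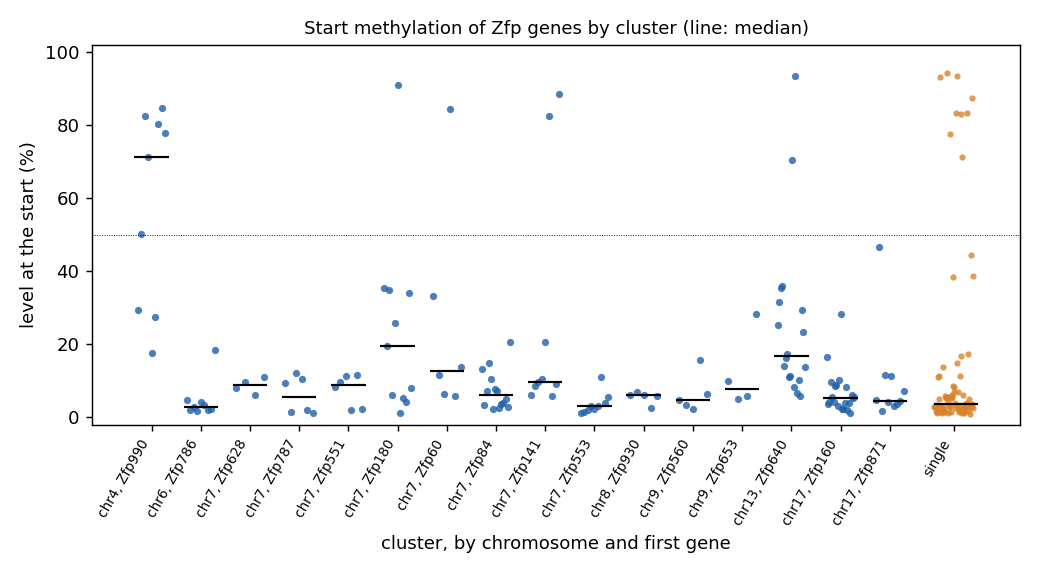
Level of the start window in percent for each readable Zfp gene, mean of 9 libraries, by cluster (named by chromosome and first gene) and for single genes; black lines are medians and the dotted line marks 50%. The chromosome 4 cluster has a median of 71.1%, the clusters beginning with Zfp640 and Zfp180 have medians of 16.8% and 19.4%, and the single genes one of 3.56% with 9 genes at 50% or more.

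Genes were also grouped by what the proteins do. These groups were chosen with earlier results of these data known, so their values are descriptions and no test of function. The 11 genes of development, imprint or retrotransposon control had a median start of 28.1% over 10 readable starts, against 6.12% over all Zfp genes. Of these 10, 4 read 50% or more at the outermost listed start: Zfp57, Zfp708, Zfp42 and Zfp981. The inner listed starts of Zfp57 read 11.4 and 12.5%, and that of Zfp708 16.4%. The share at 50% or more was 8.33% over all Zfp starts and 32.4% over those of other genes. The other 6 included Zfp445, which acts beside Zfp57 at imprints, at 18.9% ± 5.89, and Zfp809, which silences a retrovirus through its primer binding site, at 4.90% ± 1.43 (SD, n = 9). The start of Zfp445 read 5.10% within 500 bp on each side and that of Zfp809 1.39%. Zfp568, a repressor of a placental Igf2 transcript, and the neural gene Zfp521 have no listed strand, and their bodies read 83.7% and 84.0%.

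In the neural group, 11 of 16 starts could be read, with a median of 3.94%, 10 below 20% (82.6% over all Zfp starts) and 0 at 50% or more. The highest was Zfp488, an oligodendrocyte gene, at 39.8, 47.2, 35.1, 28.6 and 57.1% in Control and 37.2, 33.4, 33.7 and 33.8% in Susceptible. Control 8 was highest again, and the groups overlapped. Of the genes of the KRAB repressor pathway, 18 of 19 readable starts were below 20%, where 82.6% of Zfp starts and 60.6% of other genes' starts were. Their median was 3.46%, and they included Trim28 (1.12%), Setdb1 (10.6%) and the heterochromatin protein gene Cbx5 (1.43%). The exception was the outermost listed start of the maintenance methyltransferase gene Dnmt1, at 88.0%.

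Control and Susceptible samples were compared to ask whether methylation of these genes differed with the phenotype. No Zfp gene passed an adjusted p of 0.05 in any of the 3 regions (quasi-binomial model with limma's moderated dispersion, adjusted over all genes tested). The count was 0 of 288 starts, 0 of 355 bodies and 0 of 271 last 3 kb, where 0% of all genes passed in each region. The smallest adjusted p among Zfp genes was 0.924, 0.971 and 0.992. At an unadjusted p under 0.05 there were 17 starts (5.90%, against 4.93% of all genes), 19 bodies (5.35% against 4.98%) and 9 last 3 kb (3.32% against 4.33%). With limma on log2 odds, again 0 Zfp genes passed after adjustment in each region. Groups without overlap were seen at 7 starts (2.43%, against 1.94% of all genes tested), 5 bodies (1.41% against 1.6%) and 5 last 3 kb (1.85% against 1.6%).

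Of the 5 starts with the smallest p, Zfp422 read 3.44, 4.46, 3.10, 4.44 and 3.20% in Control and 6.06, 8.18, 6.17 and 7.83% in Susceptible. All Susceptible values were above all Control values (quasi-binomial model moderated with limma, p = 0.000581, adjusted p = 0.924). Counting only CpGs listed in all 9 libraries, the difference of 3.34 points became 0.251 points, and with 500 bp on each side 0.108 points. Zfp872 read 28.1, 21.9, 25.5, 22.9 and 22.7% in Control and 36.0, 37.6, 29.9 and 28.9% in Susceptible, also without overlap. Zfp759 read 26.6, 25.4, 43.8, 34.0 and 45.8% in Control and 24.0, 21.6, 22.2 and 19.8% in Susceptible. These Control values spread widely, all above the Susceptible ones, yet with 500 bp on each side of the start the difference of -13.2 points turned to 1.58 points. Zfp451, a SUMO ligase gene, read 4.28% ± 1.18 in Control (n = 5) and 7.01% ± 1.22 in Susceptible (n = 4). Its difference of 2.73 points became 1.15 points with only CpGs listed in all 9 libraries, 0.266 points with 500 bp on each side and -0.404 points with the start taken as the outer bound of the gene. Zfp977 read 85.1% ± 4.63 and 92.9% ± 1.68, without overlap. Its difference of 7.87 points became 3.72 points with 500 bp on each side and 3.07 points on the 4 libraries numbered 2 and 3 alone. On the same 4 libraries the difference at Zfp759 was -3.22 points.

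Zfp189, which encodes a transcription factor studied in stress resilience, read 6.88, 1.36, 3.35, 3.95 and 2.99% at its start in Control and 6.32, 6.90, 6.90 and 6.72% in Susceptible. Of the Control libraries, 4 were below all Susceptible ones and Control 2 was among them (quasi-binomial model moderated with limma, p = 0.0130, adjusted p = 0.924). Within 500 bp on each side of the start its mean level was 1.11%, and the difference of 3.01 points became 0.0444 points. The difference was 3.91 points with 2000 bp on each side and 2.05 points with only CpGs listed in all 9 libraries. On the 4 libraries numbered 2 and 3 alone it was 2.49 points.

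Over the whole body, the difference of Susceptible minus Control was below 0 in 231 of 355 Zfp genes and in 11622 of 19385 others, with medians of -0.796 and -0.411 points. Library medians of the Zfp bodies were 65.8, 67.2, 66.3, 67.3 and 68.0% in Control and 65.6, 64.3, 66.0 and 64.7% in Susceptible, and the groups overlapped. Without the first 1 kb and the last 3 kb, the mean of the library medians was 88.1% in Control and 88.3% in Susceptible in Zfp genes, and 85.4% in both groups in the others. At the start the means for Zfp genes were 6.09 and 6.08%, and in the last 3 kb 91.1 and 91.0%. The numbers of listed cytosines and of listed calls also differed between the groups, and their part in the body medians was not tested.

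The 5 bodies with the smallest p were Zfp770 (47.0% ± 4.43 in Control, 37.9% ± 1.40 in Susceptible), Zfp961 (67.3% ± 4.56, 60.5% ± 1.40), Zfp759 (66.8% ± 4.08, 58.8% ± 3.10), Zfp820 (75.0% ± 7.28, 62.1% ± 5.99) and Zfp748 (56.6% ± 3.43, 49.6% ± 2.86). All 5 were lower in Susceptible. Of the bodies at an unadjusted p under 0.05 in the quasi-binomial model, 17 of 19 Zfp bodies were lower, as were 699 of 984 over all genes. Zfp770 read 43.5, 44.7, 43.2, 50.8 and 52.7% in Control and 36.6, 36.9, 38.6 and 39.6% in Susceptible, without overlap. Without Control 5 and Control 8, the highest, its difference of -9.09 points became -5.91 points. That of Zfp820 became -1.21 points when only CpGs listed in all 9 libraries were counted, while that of Zfp759 went from -7.97 to -12.1 points and those of Zfp770, Zfp961 and Zfp748 were -10.6, -8.68 and -9.67 points. Without the first 1 kb and the last 3 kb of the gene, the differences of all 5 shrank: to -1.81 points in Zfp770, -0.734 in Zfp961, -0.935 in Zfp759, -0.223 in Zfp820 and -2.98 in Zfp748.

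At the 3' end Zfp808 read 100% in all 5 Control libraries and 94.2, 90.0, 97.3 and 87.5% in Susceptible, from as few as 22 calls. Zfp91, which encodes a ubiquitin ligase, read 93.5, 96.8, 89.7, 100 and 84.9% in Control and 72.8, 74.6, 74.7 and 80.3% in Susceptible, from 62 to 174 calls. Neither gene overlapped between groups, and both rest on few calls. Zfp423 read 50.2% ± 3.22 in Control and 43.1% ± 6.56 in Susceptible, Zfp174 17.0% ± 8.34 and 8.62% ± 1.27, and Zfp81 92.3% ± 5.71 and 98.1% ± 1.32. Without Control 5 and Control 8 the Zfp174 difference of -8.34 points became -4.63 points and the Zfp81 difference of 5.81 points became 3.0 points. Without Control 8 alone, that of Zfp174 was -4.76 points, and without Control 5 alone, that of Zfp81 was 3.74 points. On the 4 libraries numbered 2 and 3 alone, that of Zfp81 was 1.63 points, that of Zfp174 -5.45 points and that of Zfp423 -2.18 points instead of -7.00. Without Susceptible 7, that of Zfp423 was -4.04 points. In the last 1 kb alone, those of Zfp174 and Zfp423 were -2.62 and -10.6 points. The cell type lists are small: none of the 4 readable astrocyte starts was higher in Susceptible (median difference -4.95 points), nor was either microglial start, while 1 of 5 oligodendrocyte and 3 of 6 striatal neuron starts were. Over all 15447 starts tested, 48.8% were higher in Susceptible, with a median difference of -0.0332 points. No gene of these lists passed the adjusted threshold, and their part in the Zfp values was not tested.

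**Figure D5:**
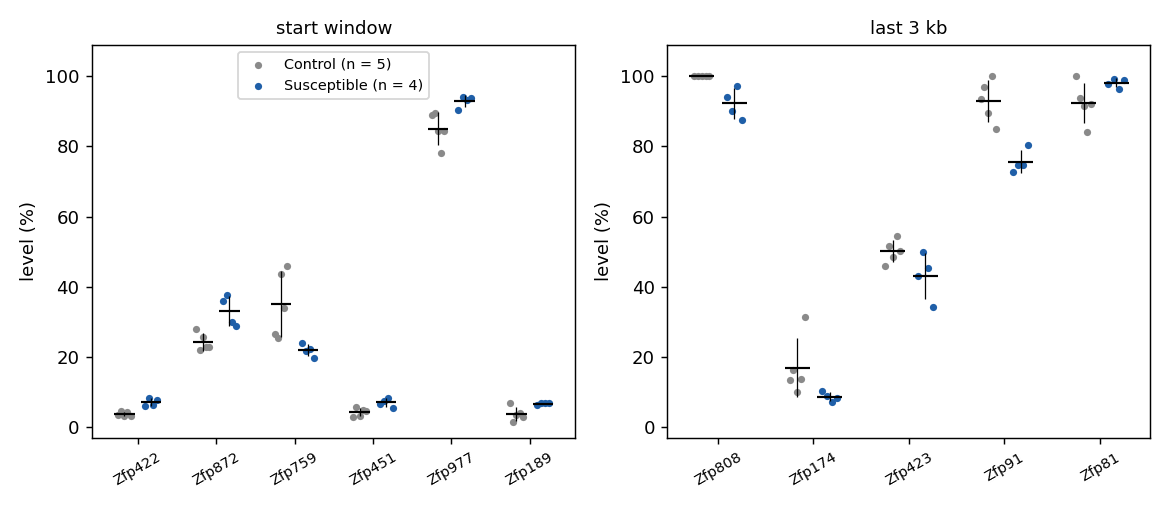
Levels in percent by library for the 5 Zfp genes of smallest p in Control against Susceptible, and Zfp189, at the start (left), and for 5 at the last 3 kb (right); points are libraries, bars means and lines 1 SD (n = 5 Control, n = 4 Susceptible). Of the genes plotted, Zfp422, Zfp872 and Zfp977 are higher in all Susceptible libraries and Zfp759 at the start and Zfp808 and Zfp91 at the 3' end are lower. Over all genes tested, groups did not overlap in 1.94% of starts and 1.6% of last 3 kb, and none of the differences passed the adjusted threshold.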

How the data were processed

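Each library has 1 deposited table of CpG cytosines by strand. Per the file headers, it gives for each cytosine a count of calls (coverage) and the percent of those calls that were C or T. The authors listed only cytosines with 10 or more calls. The submitters' processing notes name Bismark, Bowtie, Picard and mm10, with no role or version. Bisulfite calls do not separate methylation from hydroxymethylation.

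Strands of a CpG were added, and methylated calls (count times percent) and all calls were summed per region with Python 3.11.15 and pandas 2.3.3. The start is the outermost listed in the RefSeq promoter table (GRCm38.p6), the 3' end the opposite gene bound. Groups were compared over all autosomal protein-coding genes with a quasi-binomial model in R 4.3.3, its dispersion moderated by limma 3.58.1 and kept at 1 or more, and 3' end and start with limma on log2 odds (0.5 calls added, both groups weighted equally), with Benjamini-Hochberg adjustment. Both were run on simulated data. The changes simulated for the group model lay only at starts of intermediate level, and the limma simulation used normally distributed noise without call counts. Recovery at low starts or near the upper limit was therefore not tested. The labels give no batch. Numbers 2 and 3 occur in both groups, and the labels do not say whether they pair the samples, which were treated as unpaired. Deviations of same-numbered libraries had r = 0.004 and -0.015 across 15447 starts, which does not decide whether they pair. Depth limits each level through its calls, and calls from 1 amplified molecule may repeat.

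The genes and lists were chosen with earlier results of these data known. Named were the 10 highest methylated starts and the 10 nearest to 50%, the 5 smallest p per region, the 5 highest and lowest 3' ends, the first and last gene of each cluster, and 10 genes of known role (Zfp57, Zfp42, Zfp445, Zfp568, Zfp809, Zfp189, Zfp521, Zfp423, Zfp503 and Zfp36). Others, such as Zfp541, Zfp931, Zfp791, Zfp788, Zfp982, Zfp488, Zfp329 and Zfp830, were chosen after their values were seen. Protein sequences were not used here, so finger and KRAB motifs were not counted. Alternatives to the region, minimum of calls, model, CpGs and libraries were run.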

Additional observations from a re-analysis of the deposited data

Results flagged for a closer look

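Within a group, 9 values stood far from the other libraries by Dixon's criterion, of 116 groups of values examined; chance flags about 1 in 20 groups. Zfp36 gave 3 of them. Its start read 19.2% in Control 4, where the other Control libraries read 36.6 to 40.0%, and 20.4% in Susceptible 7, where the others read 35.2 to 36.4%. Its gene, 2445 bp long, read 37.8% in Control 4, against 53.0 to 57.7% in the other Control libraries. The Zfp820 body read 87.6% in Control 4 and 69.6 to 74.7% in the others. The Zfp42 start read 81.7% in Susceptible 2, against 75.3 to 76.3%, and the Zfp626 start 80.5% in Susceptible 3, against 88.5 to 89.8%. At 3' ends near the upper limit, Zfp708 read 98.0% in Control 2 and Zfp160 95.0% in Control 3, with 100% in the other Control libraries of both, and Zfp189 read 98.7% in Susceptible 6, against 97.7% in the other Susceptible libraries.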

How the results depend on the processing

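Under every alternative run, 0 Zfp genes passed the adjusted threshold between Control and Susceptible in the 3 regions. These included a replicate block on the 4 libraries numbered 2 and 3, the log2 of listed calls as a covariate, and leaving out any single library. With the covariate, the unadjusted p in the quasi-binomial model rose from 0.0194 to 0.285 at the 3' end of Zfp91. It also rose from 0.0066 to 0.0663 in the body of Zfp770, and fell from 0.0157 to 0.00664 in that of Zfp820. Leaving out 1 library at a time gave 250 to 251 genes with the 3' end higher, 3 to 4 with the start higher, 22 to 25 methylated starts, and medians of 6.14 to 6.33% (start), 65.2 to 65.8% (body) and 90.3 to 90.7% (last 3 kb). The count with the start higher was 5 with a start window of 500 bp on each side, 6 with the replicate block and 7 with the CpG-richer gene end as the start where no strand is listed. The median start was 3.62% with only CpGs listed in all 9 libraries, 1.97% with 500 bp on each side and 8.19% with the outer gene bound as the start, which gave 42 methylated starts. The median body was 63.9% with only CpGs listed in all 9 libraries and 88.2% without the first 1 kb and the last 3 kb. The narrower windows hold fewer flanking bases; the cause of the other shifts was not tested. For the 16 named group differences, 66 values came from other regions, CpGs or sets of libraries and differed from the reported one, of which 63 kept their sign. Zfp759 at the start turned to 1.58 points (500 bp) and 5.97 points (outer gene bound), and Zfp451 to -0.404 points (outer gene bound). For the 43 named levels, 75 values came from other regions or CpGs and differed from the reported one, of which 29 moved by more than 1 SD. Gaps of 250 kb and 1 Mb gave 16 and 18 clusters. The alternatives with the outer gene bound, with the CpG-richer or CpG-poorer end and, for the median body level, with the body interior were chosen after seeing the data. Depth limits regions of few CpGs most: some 3' ends rest on about 20 calls in a library, where a level of 100% is not exact.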
